A study of Mus musculus with 4 samples.

Results

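The nuclear genes of the respiratory chain were followed across the cell types of a sorted endothelial population. Members were chosen by symbol and by a measured value, their summed counts. They were genes whose names start with Ndufa, Ndufb, Ndufc, Ndufs, Ndufv, Uqcr, Cox4i, Cox5, Cox6, Cox7, Cox8 or Atp5, without Ndufa4l2 and without names ending in -ps. A gene also needed at least 100 unique molecular identifiers (UMIs, each standing for 1 captured mRNA molecule) summed over both mRNA libraries. Of 31054 features, 88 had a listed start and 82 were members. The 82 comprised 36 subunits of complex I, 8 complex I assembly factors (Ndufaf genes), 8 subunits of complex III, 14 of complex IV, 15 of complex V and Atp5s, which is not a subunit of the enzyme. The summed UMIs were the only measured values used to choose members. They ran from 337 (Ndufaf5) and 416 (Atp5s) to 42542 (Cox4i1), with a median of 8599.5, and the features left out nearest to the limit were Cox7a1 with 35 UMIs and Cox6a2 with 3. Cox7a1, Cox6a2 and Cox8b (2 UMIs) are the isoforms known from heart and skeletal muscle. All 82 were protein-coding genes in GENCODE vM21, on 19 chromosomes, and all 82 passed the filter on low counts and were tested in every comparison.

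The respiratory chain sits in the inner mitochondrial membrane. Complex I takes electrons from NADH and passes them through ubiquinone to complex III, cytochrome c carries them on to complex IV, which reduces oxygen, and complex V uses the proton gradient so built up to make ATP. Most subunits are encoded in the nucleus and a small core is encoded in mitochondrial DNA, so the complexes are assembled from the products of both genomes. Endothelial cells are known for drawing much of their ATP from glycolysis while using mitochondria for growth, signalling and biosynthesis.

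The cells came from the ears of C57BL/6 mouse pups at postnatal day 8. They had been enriched with CD31 beads, and live cells were then sorted that carried CD31 and a red reporter (Rtom) that Cdh5CreERT2, a tamoxifen-inducible Cre driven by an endothelial cadherin gene, had switched on. The labels give 2 biological replicates without saying whether each was 1 animal or a pool, each with a 10x 3′ v3 mRNA library, and all cells share strain, age and reporter. Adult and wounded samples were not analysed here. Every comparison below sets cell types against each other within these libraries, and each p-value rests on 2 libraries only. It measures the spread left once cell type and library are accounted for, pooled over 8 cell types.

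Library 1 held 1745 barcodes and 15989249 UMIs, and library 2 held 2877 and 26675353, with 3 barcodes in common. The filters left 1497 and 2239 cells, which had a median of 8458 and 8982 UMIs each. Members took 2.15% and 2.02% of all UMIs. Cells were gated by how many marker genes of a type had a UMI, and 8 types with at least 20 cells in each library were used: arterial (190 and 198 cells), venous (101 and 100), capillary (70 and 135), tip (112 and 195; tip cells lead vascular sprouts), lymphatic (240 and 477), dividing blood (168 and 252), dividing lymphatic (45 and 116) and pericyte-like (96 and 138). Dividing cells had at least 4 of 12 mitosis and replication markers, such as Top2a and Mki67. The marker lists of arterial, venous, capillary, tip, lymphatic and pericyte-like cells each summed to the highest CPM in their own gate in both libraries. This follows from the gating, which used the same markers, and is no test of the gates. The pericyte-like gate also held endothelial markers at 3668 and 3530 CPM, near the level in dividing lymphatic cells (3526 and 4013). UMIs were summed per library and type, which gave 16 sums, and levels are CPM (counts scaled to a common library size) after TMM scaling in edgeR.

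Gated types differed modestly in the share of their UMIs that came from members. Arterial cells had 1.96% and 1.83% (libraries 1 and 2), venous cells 2.02% and 1.82%, capillary cells 2.19% and 1.94%, tip cells 2.23% and 2.07%, and lymphatic cells 2.15% and 2.12%. Dividing blood cells reached 2.42% and 2.19%, dividing lymphatic cells 2.59% and 2.46%, and pericyte-like cells 2.24% and 2.00%. Dividing lymphatic cells held the highest share in both libraries and arterial or venous cells the lowest. Complex V showed the widest span, from 0.571% and 0.522% in venous to 0.837% and 0.807% in dividing lymphatic cells. Complex III ran from 0.205% and 0.186% in venous to 0.251% and 0.238% in dividing lymphatic cells. The 13 mitochondrially encoded genes followed another order: lymphatic cells had the highest share in both libraries (5.94% and 6.48%), and dividing blood cells had 4.94% and 5.48%. That share is limited by the filter that removed cells with over 10% mitochondrial UMIs.

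**Figure D1:**
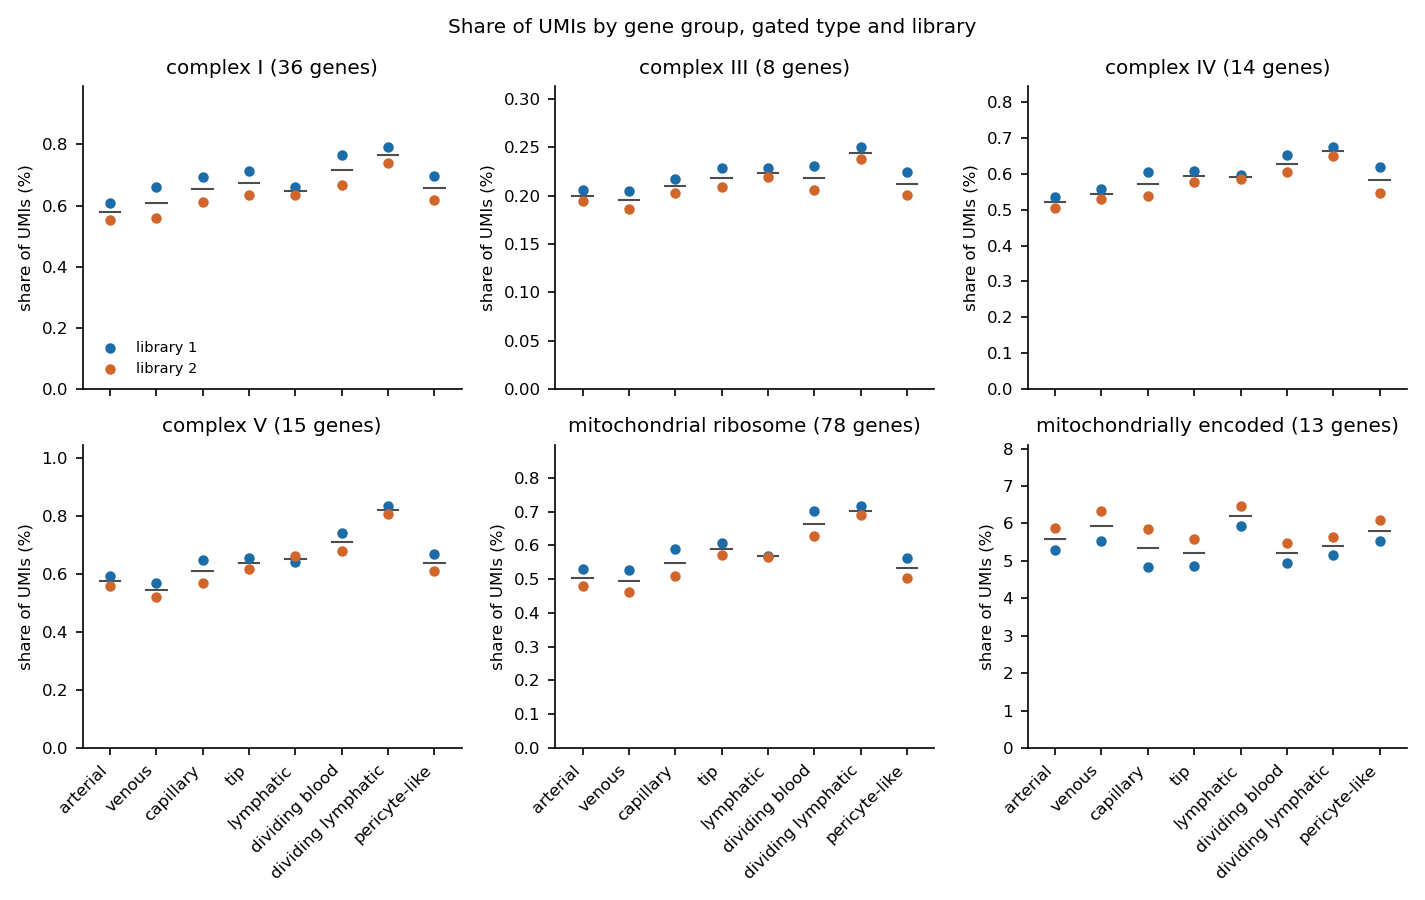
Share of all UMIs (percent, y axis, from 0) taken by each gene group in the 8 gated types (x axis), with 1 point per library and a bar at the mean of 2 libraries. In complexes I, III, IV and V the dividing lymphatic cells are highest in both libraries, as for complex V at 0.837% and 0.807%, whereas the mitochondrially encoded genes are highest in lymphatic cells.

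Dividing blood endothelial cells were compared with non-dividing arterial, venous, capillary and tip cells, each type counting equally. Dividing blood cells held arterial markers at 119 and 120 CPM, venous at 102.5 and 156.5, capillary at 223 and 240 and tip at 419 and 369. Their mix of vessel types was not matched to the non-dividing cells, and its part in the changes was not tested. Of 82 members, 30 were higher and 3 lower (edgeR quasi-likelihood test, Benjamini-Hochberg adjusted p under 0.05 over all 10804 genes tested). The background was 28.8% of all genes passing in either direction, 14.3% higher and 14.4% lower, against 40.2% of members. The median log2 change was 0.157 over members and -0.059 over all genes, and 68 of 82 members had a change above 0. The changes were small: apart from Ndufaf2 and Ndufa5, the members that rose did so by at most 1.38-fold.

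In complex I, 11 of 36 subunits were higher and 1 was lower. Ndufa5, an accessory subunit of the matrix arm, reached 176 and 153 CPM in dividing blood cells, against 88.8 to 135 CPM (median 103) over the 8 non-dividing blood sums. The groups did not overlap, and the log2 change was 0.64 ± 0.08 (SE, n = 2 libraries; edgeR adjusted p = 3.85e-06). Ndufab1, which is also the mitochondrial acyl carrier protein, reached 251 and 246 CPM against 167 to 222 CPM (median 182), again without overlap (log2 change 0.41 ± 0.08, edgeR adjusted p = 0.000677). Among the core subunits, which carry the redox centres, the NADH-binding Ndufv1 (144 and 156 CPM against 86.4 to 133) and its partner Ndufv2 (205 and 186 against 141 to 189.5 CPM) rose, with log2 changes of 0.34 and 0.29, whereas Ndufs1, Ndufs3, Ndufs7 and Ndufs8 did not pass. Ndufa6, an accessory subunit of the LYR family, was the 1 that fell: it had 161 and 139.6 CPM against 161 to 231 CPM (median 196; log2 change -0.39 ± 0.09, edgeR adjusted p = 0.00243). Among the 8 assembly factors only Ndufaf2 passed. This chaperone of a late step of complex I assembly reached 55.0 and 67.9 CPM against 25.5 to 44.4 CPM (median 34.6; log2 change 0.85 ± 0.14, edgeR adjusted p = 6.51e-05), without overlap.

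In complex III, Uqcr10 and Uqcrq, small subunits of the membrane part, were higher (log2 changes of 0.27 and 0.23) and Uqcrh, the hinge protein beside cytochrome c1, was lower. Uqcr10 had 265 and 232 CPM against 183 to 259.7 CPM (median 206), and Uqcrq 321.5 and 281 against 222 to 343.5 CPM (median 244). Both overlapped between groups, and Uqcrq was higher in tip cells (343.5 and 294 CPM) than in dividing cells. Uqcrh had 453 and 473 CPM in dividing against 479 to 601 CPM (median 535) in non-dividing blood cells. The core proteins Uqcrc1 and Uqcrc2 and the Rieske iron-sulfur protein Uqcrfs1 did not pass. The call of Uqcrh was not stable: its log2 change of -0.21 ± 0.07 (edgeR adjusted p = 0.0268) missed the threshold in 8 of 13 tested alternative settings.

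In complex IV, 7 of 14 subunits were higher and 1 was lower. Cox5a, a subunit on the matrix side of the enzyme, reached 533 and 472 CPM against 311 to 440 CPM (median 378; log2 change 0.43 ± 0.07, edgeR adjusted p = 0.000107), with no overlap. Cox7a2 reached 452 and 448 CPM against 311 to 379 CPM (median 349), and Cox8a 756 and 755 CPM against 499.5 to 703 CPM (median 612). Their log2 changes were 0.37 and 0.34. The paralog of Cox7a2 went the other way. Cox7a2l (chr17:83501918-83517330, minus strand, GRCm38) had 358 and 421 CPM in dividing cells against 446 to 639 CPM (median 572) in non-dividing cells. The groups did not overlap, and the log2 change of -0.55 ± 0.07 (edgeR adjusted p = 4.41e-06) was past the threshold in all 13 tested alternative settings.

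Complex V had the highest share of members passing, with 9 of 15 higher and none lower. Atp5o, which links the catalytic head to the stator, reached 409 and 353 CPM against 238 to 328 CPM (median 273; log2 change 0.47 ± 0.09, edgeR adjusted p = 0.000261). The catalytic subunit Atp5b had 784 and 862 CPM against 538 to 804 CPM (median 656), so the groups overlapped although each library showed the rise (log2 changes of 0.35 and 0.32). All 3 genes for the c subunit of the rotor ring, which encode the same mature protein, rose by 0.33 on the log2 scale: Atp5g1 (353 and 318 against 218 to 309.8 CPM), Atp5g2 (743 and 694 against 504 to 621 CPM) and Atp5g3 (301 and 277 against 195 to 254 CPM). None of these 3 overlapped between groups. Atp5d, Atp5e, Atp5h, Atp5j, Atp5k and Atp5l were the 6 that did not pass.

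Dividing cells were deeper, with medians of 12703 and 13073.5 UMIs per dividing blood cell against 7606 and 7868 in the 4 non-dividing blood types. Among cells of 10000 UMIs or more, members took 2.45% and 2.19% of the UMIs of dividing and 2.12% and 1.95% of non-dividing blood cells. Below 10000 UMIs the shares were 2.26% and 2.14% against 2.05% and 1.92%. Dividing cells were higher at either depth in both libraries, but depth was not matched within these groups. At 10000 UMIs or more the medians were 16040 and 15789 UMIs in dividing and 13148.5 and 13988 in non-dividing blood cells. Below 10000 UMIs they were 7762 and 7990.5 against 6531 and 6433. These shares therefore do not set depth aside. The count of 33 members fell to 20 in cells of 5000 to 15000 UMIs, to 20 with a mitochondrial share of at most 5% and to 16 without the library as a block. Direction was kept by all named members in these settings.

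Dividing lymphatic cells were compared with non-dividing lymphatic cells. These share no sums with the comparison in blood endothelium. Of 82 members, 26 were higher and 2 were lower, where 22.8% of all genes passed in either direction, 10.6% higher and 12.2% lower. The median log2 change was 0.256 over members and -0.092 over all genes. By complex, 10 of 36 subunits of complex I, 1 of 8 assembly factors, 2 of 8 subunits of complex III, 4 of 14 of complex IV and 9 of 15 of complex V were higher, and the 2 that were lower were again Cox7a2l and Uqcrh.

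The rotor ring gene Atp5g1 changed with the smallest adjusted p, at 488 and 418 CPM in dividing against 277 and 311 CPM in non-dividing lymphatic cells (log2 change 0.60 ± 0.10, edgeR adjusted p = 0.000149). Atp5o reached 541 and 525 CPM against 326 and 389.8 CPM (log2 change 0.57 ± 0.11, edgeR adjusted p = 0.000596). In neither gene did the libraries overlap between groups, which also held for members that did not pass, such as Atp5l and Ndufa13. Atp5k, the e subunit that holds ATP synthase dimers together, passed here at 139 and 154 CPM against 95.3 and 110.3 CPM (log2 change 0.52 ± 0.12, edgeR adjusted p = 0.00242). In blood endothelium Atp5k had a log2 change of 0.18 and did not pass.

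Cox5a reached 577 and 549 CPM against 386 and 411 CPM (log2 change 0.49 ± 0.10). Cox7a2l had 358 and 475 CPM against 514 and 651 CPM (log2 change -0.48 ± 0.09, edgeR adjusted p = 0.000477), without overlap and lower in both libraries, and missed the threshold in 3 of 13 tested alternative settings. In complex I, Ndufa12, which replaces the assembly factor Ndufaf2 in the finished enzyme, reached 217 and 219 CPM against 151 and 153 CPM (log2 change 0.53 ± 0.12, edgeR adjusted p = 0.00164). Ndufa5 reached 186 and 161 CPM against 117 and 128 CPM (log2 change 0.50 ± 0.11). Ndufaf7, a methyltransferase that acts early in complex I assembly, was the assembly factor that passed, at 37.2 and 32.8 CPM against 20.1 and 24.8 CPM (log2 change 0.65 ± 0.20, edgeR adjusted p = 0.0192).

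Both comparisons called 21 members higher, which was 70.0% of the 30 in blood and 80.8% of the 26 in lymphatic endothelium, and 2 lower. Over all genes tested, 971 were higher in both, or 62.7% of those higher in blood and 84.8% of those higher in lymphatic endothelium, so the shares of members lay near those of all genes. The difference between the effects was tested as an interaction. No member passed (edgeR, 0 of 82, against 0.703% of all genes, 0.0926% with a larger and 0.611% with a smaller log2 change in lymphatic cells), 3 had an unadjusted p under 0.05, and DESeq2 also called 0. The smallest adjusted p was that of Cox4i2 (0.126), which had 1 to 4 UMIs in each of the 6 lymphatic and dividing sums, and the next was that of Atp5k (log2 difference 0.34 ± 0.15, edgeR adjusted p = 0.484). A miss at this threshold does not show that division acts alike in both lineages. Dividing lymphatic cells had medians of 17267 and 18870 UMIs against 8301.5 and 9026 in lymphatic cells. In cells of 5000 to 15000 UMIs the count of members past the threshold fell from 28 to 2 (1 higher, 1 lower), but library 1 kept only 15 dividing lymphatic cells there, under the minimum of 20 set for a type. With a mitochondrial share of at most 5% it was 9, where library 1 kept 17 dividing lymphatic cells, and without the library as a block it was 11.

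**Figure D2:**
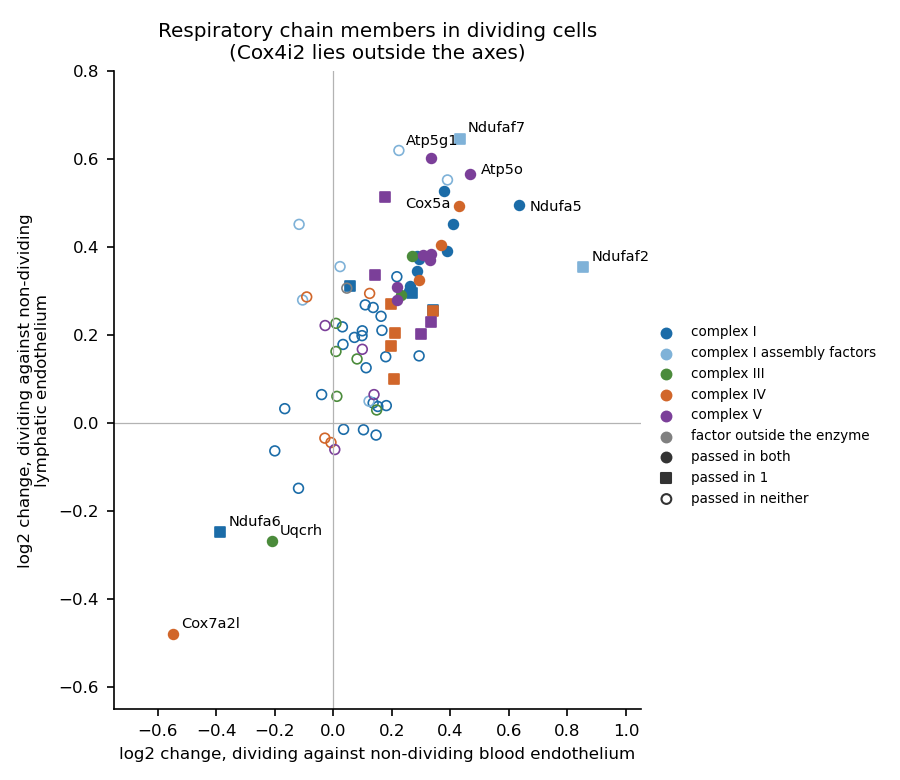
Log2 change of each member in dividing against non-dividing blood endothelium (x axis) and in dividing against non-dividing lymphatic endothelium (y axis), coloured by complex, with the marker giving in how many of the comparisons it passed at an edgeR adjusted p under 0.05. Most points lie in the upper right, Cox7a2l, Uqcrh and Ndufa6 lie in the lower left, and Cox4i2 lies outside the axes with few UMIs.

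Genes that work beside the members were taken from lists. Of 9 electron carriers and related enzymes, 4 were higher and 1 lower in dividing blood cells, and 2 were higher and 1 lower in dividing lymphatic cells. Cytochrome c (Cycs) reached 202 and 190.1 CPM in dividing blood cells against 123 to 178 CPM, and 260.2 and 219.9 CPM in dividing lymphatic cells against 136 and 148 CPM (log2 changes of 0.51 ± 0.09 and 0.73 ± 0.11, edgeR adjusted p = 7.84e-05 and 2.8e-05). Cytochrome c1 (Cyc1), a catalytic subunit of complex III outside the naming rule, rose by 0.37 and 0.47 on the log2 scale. The list of carriers for ATP, ADP and phosphate and the ATP synthase inhibitor Atpif1 had 4 tested genes, of which 2 were higher in blood, and 1 was higher and 1 lower in lymphatic cells. The ADP/ATP carrier Slc25a5 rose in both, by 0.61 and 0.59, and Slc25a4 fell in lymphatic cells (log2 change -0.37). Of 77 tested genes of the mitochondrial ribosome, which translates the mitochondrial mRNAs, 29 were higher in dividing blood and 19 in dividing lymphatic cells and none was lower, with median log2 changes of 0.27 and 0.24. Among the 4 genes of complex II, Sdhb and Sdha rose in dividing blood cells (log2 changes of 0.33 and 0.26) and none passed in lymphatic cells.

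The 13 mitochondrially encoded mRNAs did not move with the nuclear members. None was higher in either comparison, 4 were lower in dividing blood and 10 in dividing lymphatic cells, and their median log2 changes were -0.13 and -0.25. The complex IV core gene mt-Co1 had 6154 and 6904 CPM in dividing against 7943 and 9208 CPM in non-dividing lymphatic cells (log2 change -0.39 ± 0.06, edgeR adjusted p = 2.13e-05). The 92 tested genes of the cytosolic ribosome had median log2 changes of -0.07 and -0.01, with 5 higher and 24 lower in blood and 5 higher and 6 lower in lymphatic cells. Of 28 tested assembly factors outside the naming rule, 1 was higher and 4 lower in blood, and none was higher and 2 were lower in lymphatic cells. Higd2a, a complex IV assembly factor, fell in both (log2 changes of -0.55 and -0.58), as did Ttc19, which acts on complex III (-0.44 and -0.61).

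Among 11 tested regulators of mitochondrial gene expression, 2 were higher and 1 lower in dividing blood cells, and 1 was higher and 1 lower in dividing lymphatic cells. Nrf1, a transcription factor known to bind respiratory chain promoters, rose to 39.2 and 35.4 CPM in dividing blood cells against 20.04 to 30.0 CPM (log2 change 0.53 ± 0.14, edgeR adjusted p = 0.00478). In dividing lymphatic cells Nrf1 rose to 41.8 and 38.6 CPM against 21.6 and 26.9 CPM (log2 change 0.75 ± 0.18, edgeR adjusted p = 0.00345). The nuclear receptor Esrra fell to 5.15 and 8.59 CPM against 12.6 to 22.1 CPM in blood (log2 change -1.29 ± 0.25, edgeR adjusted p = 0.000371), and in lymphatic cells to 2.32 and 10.2 CPM against 13.4 and 15.5 CPM (log2 change -0.93 ± 0.33, edgeR adjusted p = 0.0427).

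**Figure D3:**
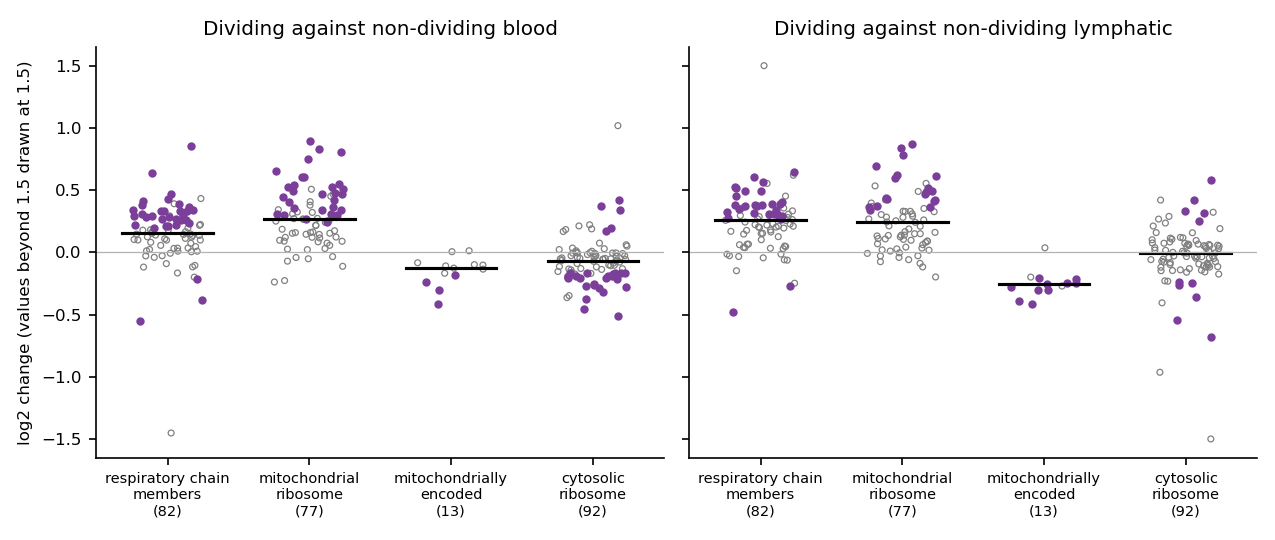
Log2 change of every tested gene of 4 groups in dividing against non-dividing blood (left) and lymphatic (right) endothelium, with filled points past an edgeR adjusted p of 0.05 and a bar at the group's median. The medians of the members (0.157 and 0.256) and of the mitochondrial ribosome lie above 0, and that of the mitochondrially encoded genes lies below 0 in both panels.

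Promoters were searched for motifs of factors that are known to act at respiratory chain genes. RefSeq promoter windows of GRCm38.p6, 250 bases before to 50 after a gene's start, matched 68 of the 82 members by symbol. The core of the NRF1 motif, GCATGCGC, was found on either strand in 11 of 68 members (16.2%) and in 3.94% of 17492 genes with a window. The longer NRF1 motif, which is that core preceded by GC, was found in 7 members (10.3%) and 1.47% of genes. The ETS motif of GABP, CCGGAAGT, was found in 5 members (7.35%) and 5.69% of genes, its shorter form CCGGAA, which lies within it, in 25 members (36.8%) and 20.9%, and the YY1 motif AAGATGGC in 10 members (14.7%) and 3.57%. Whether these factors bind there was not measured. Of the 11 with the NRF1 core, none was higher in both dividing comparisons, Atp5g2 was called higher in blood and Atp5k in lymphatic cells, Ndufa6 was called lower in blood, and 8 passed in neither. Of the 25 with CCGGAA, 4 were higher in both and 14 passed in neither. Over all 82 members, 21 (25.6%) were higher in both, against 8.99% of all genes tested. Whether calls differ between members with and without a motif was not tested. The stretches around a motif are shown for the 2 carriers of the NRF1 core that rose in a dividing comparison, for Ndufa8, the member with the smallest adjusted p between arterial and venous cells, and for Uqcrh, which was lower in dividing cells. Capitals mark the longer NRF1 motif in Atp5g2 (chr15:102671048-102671129, minus strand) and Atp5k (chr5:108434400-108434489, minus strand), its core in Ndufa8 (chr2:36049339-36049386, minus strand) and the ETS motif, read on the opposite strand, in Uqcrh (chr4:116075071-116075121, minus strand). Each is printed 5′ to 3′ on the strand of the gene and reaches up to 40 bases to either side of the motif.
Atp5g2: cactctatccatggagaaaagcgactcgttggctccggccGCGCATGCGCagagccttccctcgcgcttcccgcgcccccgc
Atp5k: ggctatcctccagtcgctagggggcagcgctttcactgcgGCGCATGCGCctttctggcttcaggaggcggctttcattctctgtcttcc
Ndufa8: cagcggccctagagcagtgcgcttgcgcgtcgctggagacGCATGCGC
Uqcrh: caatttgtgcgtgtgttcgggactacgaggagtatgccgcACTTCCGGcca

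Non-dividing types were compared next. Over the 5 non-dividing endothelial types, the ratio of the highest to the lowest type had a median of 1.28 over members, and 71 of 82 stayed under 1.5. The highest type was lymphatic for 38 members and tip for 26, and the lowest was arterial for 32 and venous for 29. Apart from Cox4i2, which had at most 6 UMIs in any of these sums, 2 members differed by a ratio above 2: Cox6b2 (6.99) and Ndufa8 (3.16). Both were highest in venous cells.

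Arterial cells were compared with venous cells, the ends of the arteriovenous axis. Of 82 members, 2 were higher in arterial cells and 5 were lower, or 8.54%, where 16.7% of all genes passed in either direction (8.27% higher, 8.41% lower). The median log2 change was -0.033 over members (0.017 with scaling by total UMIs) and -0.002 over all genes. Ndufa8 (chr2:36036326-36049406, minus strand, GRCm38), a complex I subunit with CHCH domains, had 222 and 233 CPM in arterial and 702 and 603 CPM in venous cells (log2 change -1.52 ± 0.11, edgeR adjusted p = 5.68e-10). Capillary cells (485 and 461 CPM) and tip cells lay between them. Cox6b2, known as the testis isoform of a complex IV subunit on the side of the intermembrane space, had 3.38 and 5.54 CPM in arterial and 28.8 and 33.6 CPM in venous cells (log2 change -2.79 ± 0.39, edgeR adjusted p = 1.26e-05). These were 5 and 8 UMIs against 26 and 31. Its ubiquitous paralog Cox6b1 (324 and 285 against 356 and 331 CPM) did not pass, so Cox6b2 made up 1.03% and 1.90% of the pair's UMIs in arterial and 7.47% and 9.20% in venous cells.

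Cox6c had 467 and 472 CPM in arterial against 692 and 614 CPM in venous cells (log2 change -0.47 ± 0.09, edgeR adjusted p = 0.000546). Atp5e, a small subunit of the central stalk of ATP synthase, was also lower in arterial cells (297 and 289 against 363 and 421 CPM, log2 change -0.42), as was Ndufa4 (534 and 493 against 659.9 and 585 CPM, log2 change -0.28), a call that missed the threshold in 8 of 13 tested alternative settings. Cox5a (440 and 391 against 333 and 311 CPM) and Atp5j (735 and 636 against 602 and 508 CPM), a stator subunit, were higher, with log2 changes of 0.37 and 0.31. No libraries overlapped between groups for any of these 7 members. With 2 sums on either side, this also held for members that did not pass, such as Atp5k, Cox7b and Uqcrb. Without the library as a block 4 members passed, and with a mitochondrial share of at most 5%, or in cells of 5000 to 15000 UMIs, 3 did. The mitochondrial limit kept 19 venous cells in library 2, under the minimum of 20. In the same comparison 61 of 92 tested genes of the cytosolic ribosome were lower in arterial cells, with a median log2 change of -0.31.

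Capillary cells were compared with arterial and venous cells and tip cells with capillary cells. Ndufc1, a membrane-arm subunit of complex I, was the 1 member that passed in capillary cells (164 and 129.8 CPM against 86.6 to 138 CPM, median 107; log2 change 0.43 ± 0.13, edgeR adjusted p = 0.0427), where 7.65% of all genes passed (3.72% higher, 3.92% lower). The groups overlapped, and DESeq2 called no member. The median log2 change was 0.10 over members, with 66 of 82 above 0, and 0 over all genes. Between tip and capillary cells no member passed (edgeR, 0 of 82, against 4.02% of all genes, 2.18% higher and 1.84% lower), 8 had an unadjusted p under 0.05, and DESeq2 also called 0. The median log2 change was 0.047 over members (0.087 without library 1) and -0.004 over all genes. A fit with only the 4 sums of these 2 types called 2 members, both higher in tip cells.

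Lymphatic cells were compared with the 4 blood types, with 22 members higher and 5 lower, or 32.9%. That share lies below the background of 41.5% of all genes (22.2% higher, 19.3% lower). The median log2 change was 0.15 over members and 0.05 over all genes. With library 2 left out the median over members was 0.045. These comparisons share the blood and lymphatic sums with those of dividing and of arterial and capillary cells.

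Ndufa8 had 209 and 204 CPM in lymphatic cells against 222 to 702 CPM (median 446) in blood types, without overlap (log2 change -0.995 ± 0.086, edgeR adjusted p = 1.46e-09). The nearest blood type was arterial, with 222 and 233 CPM. Cox4i1, the ubiquitous isoform of complex IV subunit 4, had 1137 and 1322 CPM against 843 to 985 CPM (median 931; log2 change 0.40 ± 0.06, edgeR adjusted p = 1.35e-05), also without overlap. Ndufa4 had 517 and 469.6 CPM against 493 to 684 CPM (median 609; log2 change -0.28 ± 0.07, edgeR adjusted p = 0.00207), and Cox7c had 476 and 507 CPM against 376 to 417 CPM (median 396; log2 change 0.31 ± 0.07). In complex V, 7 of 15 members were higher and Atp5j was lower. Atp5d, a subunit of the central stalk, had 477 and 551 CPM against 357 to 425 CPM (median 400; log2 change 0.39 ± 0.08, edgeR adjusted p = 0.000211), and Atp5o had 326 and 389.8 CPM against 238 to 328 CPM (median 273; log2 change 0.39 ± 0.09). Core subunits that were higher included Ndufs7 and Ndufs8 of complex I and Atp5a1, Atp5b and Atp5d of complex V, and the call of Atp5a1 missed the threshold in 8 of 13 tested alternative settings.

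Of the mitochondrially encoded genes 8 were also higher in lymphatic cells and none was lower, with mt-Nd4 at 4175 and 4537 CPM against 2975 to 4178 CPM (log2 change 0.31 ± 0.05, edgeR adjusted p = 2.12e-05). All 4 genes of the list with carriers and Atpif1 were higher, led by the ADP/ATP carrier Slc25a4 (984 and 854 against 521 to 782 CPM, log2 change 0.66 ± 0.07, edgeR adjusted p = 6.85e-08). Of 92 tested cytosolic ribosome genes 44 were higher and 4 lower, with a median log2 change of 0.16. The member count was 17 higher and 7 lower with RLE scaling. Without the filter on low counts it was 8 higher and 7 lower, and in cells of 5000 to 15000 UMIs 7 higher and 7 lower. In the latter 2 settings as many or nearly as many were thus lower as higher. The member count was 11 higher and 2 lower without the library as a block. It was 10 and 3 with a mitochondrial share of at most 5% and 9 and 4 with DESeq2.

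**Figure D4:**
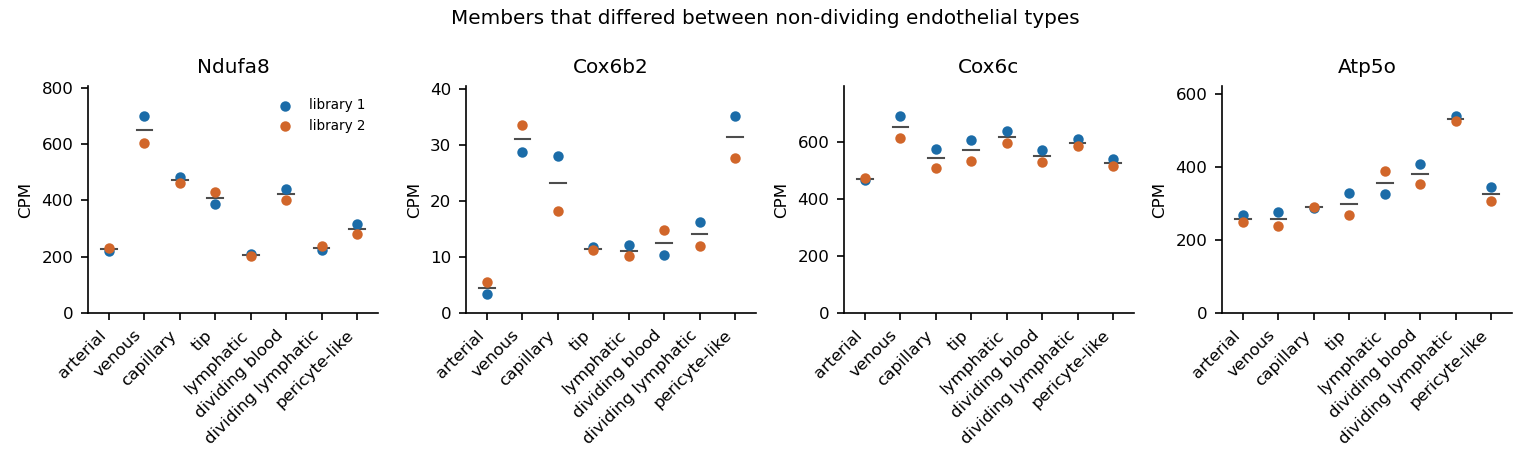
CPM (y axis, from 0) of Ndufa8, Cox6b2, Cox6c and Atp5o in the 8 gated types (x axis), with 1 point per library and a bar at the mean of 2 libraries. Ndufa8 is highest in venous cells (702 and 603 CPM) and lowest in arterial and lymphatic cells, and Atp5o is highest in dividing lymphatic cells.

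Pericyte-like cells were compared with the 5 non-dividing endothelial types. Pericytes are mural cells that wrap small vessels. Of 82 members, 5 were higher and 5 lower, or 12.2%, where 24.3% of all genes passed (15.6% higher, 8.64% lower), and the median log2 change was 0.013 over members (0.054 without library 2) and 0.024 over all genes. Complex IV held 6 of the 10: Cox4i2, Cox6b2 and Cox8a were higher and Ndufa4, Cox7a2l and Cox5a lower. Of complex I, Ndufs7 and Ndufb10 were higher and Ndufc2 and Ndufa8 lower, and no subunit of complexes III or V passed. With scaling by total UMIs the split was 7 higher and 4 lower.

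Cox4i2 (chr2:152754173-152765037, plus strand, GRCm38), known as the lung isoform of subunit 4 that is induced by low oxygen, was the member with the widest difference. Pericyte-like cells held 310 and 450 UMIs of Cox4i2, and the 5 endothelial types together held 11 and 14. Pooled over those types, its share of UMIs was 147 and 190 times as high in pericyte-like cells as in endothelial cells, and the edgeR adjusted p was 1.19e-19. The ubiquitous Cox4i1 did not pass, with 1012 and 1027 CPM in pericyte-like cells and 843 to 1322 CPM (median 952) in endothelial types. Cox4i2 thus made up 19.0% and 19.6% of the UMIs of the pair in pericyte-like cells and at most 0.458% in any endothelial sum.

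Ndufa4 (chr6:11900292-11907497, minus strand, GRCm38), a complex IV subunit that was first ascribed to complex I, was lower. It had 385 and 310.2 CPM in pericyte-like cells against 469.6 to 684 CPM (median 581) in endothelial types, without overlap (log2 change -0.74 ± 0.08, edgeR adjusted p = 4.58e-08). Its paralog Ndufa4l2, a gene known to be induced by HIF-1 and outside the naming rule, had 640 and 685 CPM in pericyte-like cells, from 834 and 1233 UMIs, and at most 9 UMIs in any endothelial sum. Ndufa4l2 accounted for 62.4% and 68.8% of the UMIs of that pair in pericyte-like cells and for at most 1.13% elsewhere. Cox6b2 (35.3 and 27.8 against 3.38 to 33.6 CPM, median 12.0; log2 change 1.24 ± 0.21, edgeR adjusted p = 7.54e-05) overlapped with venous cells. Cox8a had 817 and 728 CPM against 499.5 to 703 CPM (median 565; log2 change 0.39 ± 0.07, edgeR adjusted p = 0.000225), without overlap. Cox7a2l had 434 and 503 CPM against 446 to 651 CPM (median 572; log2 change -0.29 ± 0.07, edgeR adjusted p = 0.00472).

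**Figure D5:**
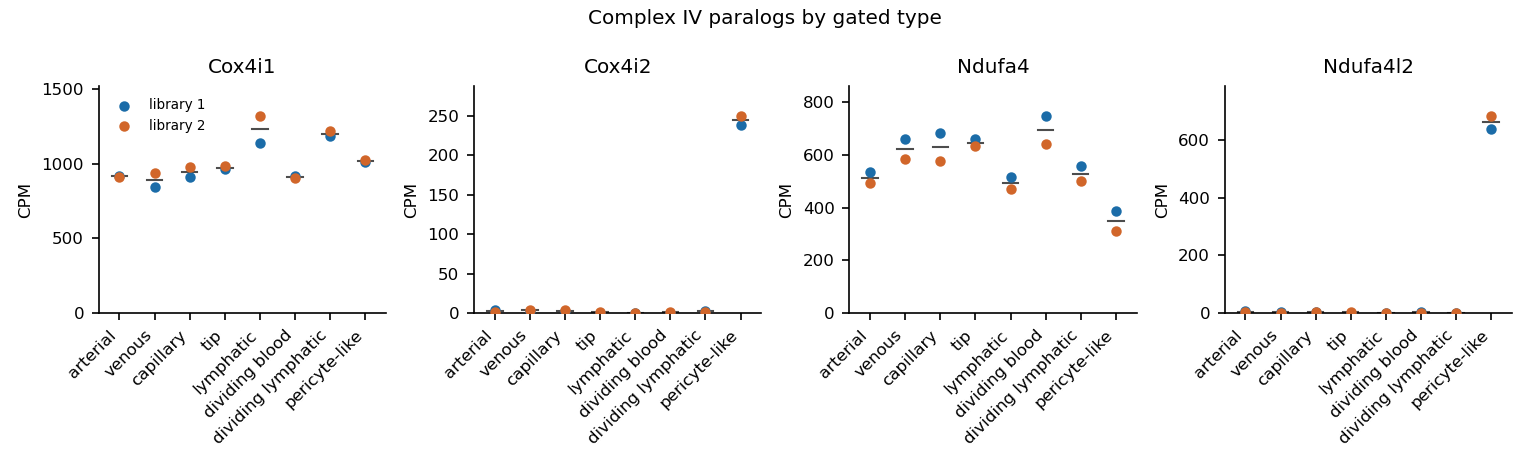
CPM (y axis, from 0) of Cox4i1, Cox4i2, Ndufa4 and Ndufa4l2 in the 8 gated types (x axis), with 1 point per library and a bar at the mean of 2 libraries. Cox4i2 and Ndufa4l2 are near 0 outside pericyte-like cells, where Ndufa4l2 reaches 640 and 685 CPM and Ndufa4 is at its lowest.

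Pericyte-like cells were not split by division, and the part of division in their changes was not tested. The pericyte-like gate held RNA of other cell types and markers of dividing cells. A UMI of Pecam1 or Cdh5, the endothelial markers behind the sort, was present in 85.4% and 77.5% of its cells, fibroblast markers summed to 477 and 723 CPM against at most 10.8 CPM elsewhere with 1 of 6 at 0, and dividing markers to 824 and 697 CPM against 32.4 to 108 CPM in non-dividing types. In the 17 and 40 pericyte-like cells with at most 2 Pecam1 and Cdh5 UMIs, an alternative chosen after seeing the data, 18 members passed (11 higher, 7 lower), and Ndufc2 no longer did (edgeR adjusted p = 0.0515). Ndufa4 there had 5 and 14 UMIs against 193 and 385 of Ndufa4l2, so that Ndufa4l2 made up 97.5% and 96.5% of the pair, and its log2 change was -3.54 (edgeR adjusted p = 1.35e-13). Cox4i2 made up 37.4% and 31.2% of its pair. Cox6b2 made up 17.2% and 7.14% of its pair, from 10 and 7 UMIs, against 8.46% and 7.65% in the whole gate, so its share was larger in library 1 only. Ndufa8 had a log2 change of -1.07 in place of -0.27. With a mitochondrial share of at most 5% the count of members past the threshold was 2, and without the library as a block it was 6.

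Many respiratory chain genes have near-identical processed copies in the genome. The sources used here do not give how reads shared with such copies were counted, and the levels of single members carry that uncertainty. The symbol Atp5o also occurs on another feature with 1 UMI, which was not a member. UMIs from the 3′ end are not scaled to gene length, so levels were compared between types and not between genes.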

How the data were processed

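Raw UMI counts per gene and cell of 2 mRNA libraries were used as deposited. Cell Ranger, mm10 and Seurat 3.0.2 are named without a role in the submitters' processing notes, and software version 3.0.2 stands in the matrix headers. Not given in the sources used here are aligner settings, the treatment of reads that match several places and the rule for keeping barcodes. The antibody tag libraries were not used here. No correction for free RNA was made.

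Members and gene lists were chosen with earlier results of these data known. Barcodes with under 500 genes (26 and 45 in libraries 1 and 2) or over 10% mitochondrial UMIs (240 and 616) were left out, as were 3 and 11 doublets called with Scrublet in scanpy 1.11.5 at 0.8% per 1000 cells, which is under 0.5% of the cells. Gates counted the markers with a UMI, in this order: immune (2 of 6), keratinocyte (3 of 6), fibroblast (4 of 6) and erythroid cells (over 1% haemoglobin UMIs) were left out, then pericyte-like (4 of 10), endothelial (2 of 6), dividing (4 of 12), lymphatic (3 of 6) and, in blood endothelium, arterial (3 of 6), venous (2 of 3), capillary (2 of 4) and tip (2 of 4). Cells in no gate (352 and 441 blood cells) or in several (71 and 121) entered no comparison. The markers that made a gate are not reported as results of it.

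UMIs were summed per library and type and tested in 1 fit over 16 sums with edgeR 4.0.16 in R 4.3.3 (TMM scaling, filterByExpr, quasi-likelihood test, library as a block, 7 residual degrees of freedom), with Benjamini-Hochberg adjustment over 10804 genes and 0.05 as the threshold. Same-numbered sums come from the same library, so the block follows from the design. The library ratios of any 2 types correlated at 0.039 to 0.299 across genes. Each SE was obtained from the log2 change and the F statistic (change over root F), and several types were combined as the mean of their log levels. Named members were the isoform families, the core subunits and up to 4 members per complex with the smallest adjusted p in each comparison, with up to 3 genes per list. Other members named for their values, such as those that did not pass, were chosen after these were seen. Alternatives are given in the closing section, with DESeq2 1.42.0 among them. Sums of 45 to 477 cells limit the precision of low members. Promoters and coordinates came from RefSeq (GRCm38.p6) and GENCODE vM21.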

Additional observations from a re-analysis of the deposited data

How the results depend on the processing

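Each comparison was repeated under other settings, and the number of members past the threshold is given for those that moved it by more than 1.5 times. Without the replicate block it was 16 in place of 33 in dividing blood, 11 in place of 28 in dividing lymphatic, 13 in place of 27 in lymphatic against blood, 4 in place of 7 in arterial against venous, 0 in place of 1 in capillary and 6 in place of 10 in pericyte-like cells. With a mitochondrial share of at most 5% these were 20, 9, 13, 3, 0 and 2, with 79 of 82 members left in the fit. That limit kept 17 dividing lymphatic cells in library 1 and 19 venous cells in library 2, under the minimum of 20 set for a type. In cells of 5000 to 15000 UMIs they were 20 in dividing blood, 2 in dividing lymphatic (15 cells in library 1), 14 in lymphatic, 3 in arterial and 0 in capillary cells. DESeq2 gave 13 in lymphatic and 0 in capillary cells, and omitting the low-count filter gave 15 and 2. In capillary cells RLE scaling, scaling by total UMIs and leaving out cells with Sele UMIs each gave 2, and omitting the mitochondrial limit gave 3. A fit with only the sums compared gave 2 in place of 0 for tip against capillary cells. Pericyte-like cells with few endothelial UMIs, chosen after seeing the data, gave 18. The cause of these shifts was not tested, although narrower cell filters leave fewer cells. The interaction stayed at 0 in all 13 tested settings. Among the settings, asking for 1 more marker per gate kept 9 capillary cells in library 1, also under the minimum of 20. Leaving out a library leaves no residual degrees of freedom, so only medians over members were taken: 0.132 to 0.217 in dividing blood, 0.206 to 0.290 in dividing lymphatic, 0.045 to 0.168 in lymphatic, -0.045 to -0.039 in arterial, 0.096 to 0.103 in capillary, 0.032 to 0.087 in tip and 0.002 to 0.054 in pericyte-like cells, and 0.039 to 0.088 for the interaction. Of 83 results of named members, 23 stayed past the threshold in every tested setting and none reversed. Of their 1088 values in tested settings, 192 were no longer past it. Uqcrh lost its call in 8 settings in each of the comparisons that called it, as did Ndufa4 between arterial and venous cells and Atp5a1 in lymphatic cells.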
